A study of Mus musculus with 14 samples.

Results

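A set of 40 genes of mitosis and the mitotic spindle, chosen by symbol, was followed in hair follicle stem cells (HFSC) and in regulatory T (Treg) cells of mouse skin. All 40 had a row in both deposited expression tables, each of which lists 24537 gene symbols. Transcript abundance was measured by RNA-seq in 14 libraries and is given as TPM, a share of all transcripts that is scaled for transcript length and library depth. HFSC were sorted as CD34+ ITGA6 high cells 4 days after hair depilation, which starts a new growth cycle of the follicle, from wild-type mice (GR WT, 3 libraries) and from Foxp3YFP-Cre GRfl/fl mice (GR KO, 3 libraries). Treg cells were sorted from skin 1 day after depilation, again from GR WT (3 libraries) and Foxp3YFP-Cre GRfl/fl mice (GR KO, 5 libraries). In the GR KO mice the Cre enzyme is driven by Foxp3, the defining transcription factor of Treg cells, and removes floxed sequence of the glucocorticoid receptor gene there. The deletion is thus aimed at Treg cells and not at HFSC, and the question put to the stem cells is how they differ when they come from skin whose Treg cells are the target of the deletion. The labels give no Cre allele for the wild-type mice and no age, and do not say whether each library is a separate mouse, so the spread between libraries may in part be technical.

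Mitosis is driven by cyclin-dependent kinase 1 and its cyclins, together with the Polo-like and Aurora kinases, while kinetochores tie chromosomes to spindle microtubules and the spindle checkpoint delays anaphase until all are attached. The anaphase-promoting complex (APC/C) then marks cyclin B and securin for destruction, and motors, microtubule bundlers and the contractile ring finish the division. Most transcripts of these genes are made late in the cell cycle and are low in resting cells, and stem cells of the resting follicle are largely quiescent until a growth phase begins.

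Many genes of this kind carry a cell cycle homology region (TTTGAA) and CCAAT boxes near their start, so these letters were searched on both strands of RefSeq promoter windows of the mouse build GRCm38.p6, from 250 bases before to 50 bases after the start. A window was found for 36 of the 40 genes, all but Kif20a, Aurkb, Ccna2 and Tpx2. TTTGAA was present in 26 of the 36 windows (72.2%), against 17.9% of all 32851 windows of the same length and 11.6% of the 9329 genes with a window that were tested in HFSC. CCAAT was present in 27 (75%), against 37.4% of all windows and 39.2% of the tested genes. Both stood together in 23 windows (63.9%), against 6.95% of all windows and 5.01% of tested genes. In the 250 bases before the start alone, TTTGAA was in 30.6% of the 36 windows, against 16% of all windows and 10.2% of tested genes, and both motifs were in 27.8%, against 5.55% and 4.06%. The E2F letters TTTCGCGC or TTTGGCGC occurred in 1 of the 36 (2.78%), against 0.813% of all windows and 1.62% of tested genes. A single match is too few for a comparison. The stretches printed next lie upstream of the start, and those of Cdk1 and Cdc20 end at positions -27 and -10 from it. Left out by this are a TTTGAA of Cdk1 at -15 and a CCAAT of Cdc20 at -8. TTTGAA matches after the start, as in Ccnb2 and Hmmr, are not shown either. The stretches show some of the upstream arrangements found among the 40 genes, with Birc5 as a gene whose window has neither motif. They are written 5′ to 3′ on the strand of the gene, and capitals mark TTTGAA and CCAAT or their reverse complements TTCAAA and ATTGG.
Cdk1, chr10:69352939-69353032, minus strand: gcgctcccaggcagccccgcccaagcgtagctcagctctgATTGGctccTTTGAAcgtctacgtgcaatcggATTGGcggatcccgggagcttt
Ccnb2, chr9:70421555-70421674, minus strand: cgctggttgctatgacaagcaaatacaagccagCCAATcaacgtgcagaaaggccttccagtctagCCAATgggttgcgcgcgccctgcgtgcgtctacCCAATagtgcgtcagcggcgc
Cdc20, chr4:118437353-118437463, minus strand: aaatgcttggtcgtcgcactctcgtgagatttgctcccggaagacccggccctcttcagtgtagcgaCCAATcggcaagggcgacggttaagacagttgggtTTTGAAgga
Top2a, chr11:99024190-99024309, minus strand: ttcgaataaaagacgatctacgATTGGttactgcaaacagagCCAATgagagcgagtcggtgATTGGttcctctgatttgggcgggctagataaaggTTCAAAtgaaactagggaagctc
Mki67, chr7:135716380-135716499, minus strand: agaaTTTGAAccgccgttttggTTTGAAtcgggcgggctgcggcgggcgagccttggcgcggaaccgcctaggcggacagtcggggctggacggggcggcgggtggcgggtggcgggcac
Hmmr, chr11:40733438-40733557, minus strand: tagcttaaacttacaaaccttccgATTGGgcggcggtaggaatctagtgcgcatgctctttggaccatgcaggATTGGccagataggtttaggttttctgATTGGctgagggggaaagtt
Birc5, chr11:117849117-117849236, plus strand: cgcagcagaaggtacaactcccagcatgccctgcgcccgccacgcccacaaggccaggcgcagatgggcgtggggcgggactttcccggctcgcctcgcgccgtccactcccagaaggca

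The repeated CCAAT boxes of Ccnb2 began at positions -87, -54 and -21 from the start, and those of Top2a in the printed stretch at -98, -78 and -58. At least 2 CCAAT boxes were found in 20 of the 36 windows (55.6%), against 15.3% of the tested genes. CCAAT matches lay mostly upstream: of 67 matches, 43 began within 100 bases before the start and 3 after it, with a median position of -71. For TTTGAA, 17 of 33 matches began after the start and 10 within 100 bases before it, with a median position of 3. Neither set of letters was found in the windows of Birc5, Nuf2, Nusap1, Knstrn, Mad2l1 and Pttg1. The RefSeq start lay away from the transcript start used in the expression table by 3852 bases for Kif2c, 267 for Pttg1 and 247 for Mad2l1, so the windows of these 3 genes may not belong to the transcript measured. A match to these letters is a description of the sequence and not evidence of binding.

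**Figure D1:**
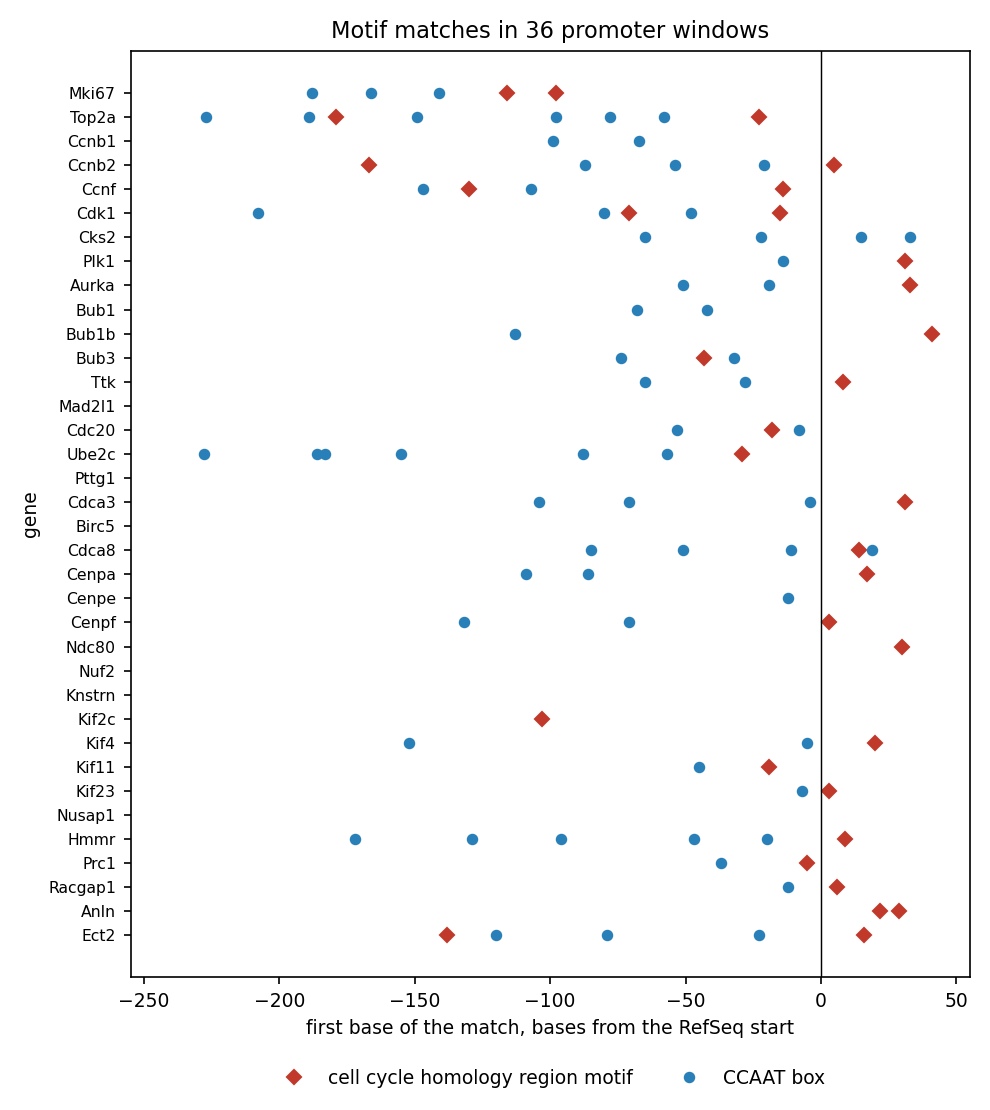
Position of each TTTGAA match (red diamonds) and CCAAT match (blue circles) in the 36 promoter windows, 1 row per gene, with the x axis in bases from the RefSeq start (vertical line). Of 67 CCAAT matches 43 begin within the 100 bases before the start and 3 after it, of 33 TTTGAA matches 17 begin after it, and 6 rows are empty.

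HFSC depth was 4.5, 6.3 and 7.2 M tags in GR WT replicates 1 to 3. In GR KO replicates 1 to 3 it was 7.4, 8.0 and 7.3 M, so every KO library was deeper than every WT library. Treg libraries had 9.2 to 14.5 M tags. Nr3c1, which encodes the receptor, was at 41.6 ± 7.07 TPM in GR WT and 43.6 ± 6.89 TPM in GR KO HFSC (SD, n = 3 each), and at 211 ± 35.3 (SD, n = 3) and 129.5 ± 27.3 TPM (SD, n = 5) in Treg cells, where the groups overlapped (limma adjusted p = 0.0722). Such a whole-transcript value still counts reads of any exon outside the floxed part. The defining markers matched the labels: Cd34 was at 108.8 to 225 TPM in all HFSC libraries and Foxp3 at 0.357 TPM or less, while Foxp3 was at 136.9 to 281 TPM in all Treg libraries.

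All 40 mitotic genes had a lower fitted level in HFSC from GR KO skin than in HFSC from GR WT skin, with log2 fold changes from -0.91 for Birc5 to -0.14 for Ccnb1 and a median of -0.44. The median over all 12493 genes tested was -0.02, and 52.8% of those genes had a fold change below 0 and 47.2% above. No single one of the 40 passed an adjusted p of 0.05 in limma, a test run across all genes, and 0.176% of all genes did; the smallest adjusted p among the 40 was 0.0782, for Cdca3. At an unadjusted p under 0.05, 21 of the 40 (52.5%) were lower and 0 higher, against 8.8% and 7.8% of all genes tested. With voom, which weights each value by the tags behind it, 12 of the 40 passed the adjusted threshold, as did 3.87% of all genes, and 30 were lower at an unadjusted p under 0.05, against 13.4% of all genes lower and 7.03% higher. In 15 of the 40 (37.5%) every KO library lay below every WT library, against 12.8% of all genes, and in 0 every KO library lay above, against 10.7%. A log2 fold change below -0.3 was found in 32 of the 40 and in 17.8% of all genes. These are bulk measurements of a sorted population, so fewer cells in division and less RNA of these genes per dividing cell cannot be told apart.

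The libraries ranked alike across most of the genes, so the counts over the 40 are not counts of independent observations. GR WT replicate 3 was the highest of the 6 libraries for 34 of the 40 genes, GR WT replicate 1 for 5 and GR WT replicate 2 for 1 (Pttg1). GR KO replicate 2 was the lowest for 25 genes, GR KO replicate 3 for 12, GR KO replicate 1 for 2 (Ccnf and Pttg1) and GR WT replicate 1 for 1 (Ccnb1). Among the KO libraries, replicate 1 held the highest value for 36 genes, and in 23 genes it lay above the lowest WT library, compared with 3 genes for KO replicate 2 and 6 for KO replicate 3. The mean log2(TPM + 1) over the 40 genes was 5.52, 5.48 and 5.85 in GR WT replicates 1 to 3 and 5.39, 5.02 and 5.11 in GR KO replicates 1 to 3. Both groups were apart on this mean, by a margin set by WT replicate 2 and KO replicate 1. Summed over the 40 genes, the level was 2202, 2097 and 2763 TPM in GR WT and 1951, 1494 and 1609 TPM in GR KO. Leaving out the libraries at the ends moved the count of 21 lower genes: it was 13 without WT replicate 3, 14 without KO replicate 2, 14 without KO replicate 3 and 30 without KO replicate 1.

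**Figure D2:**
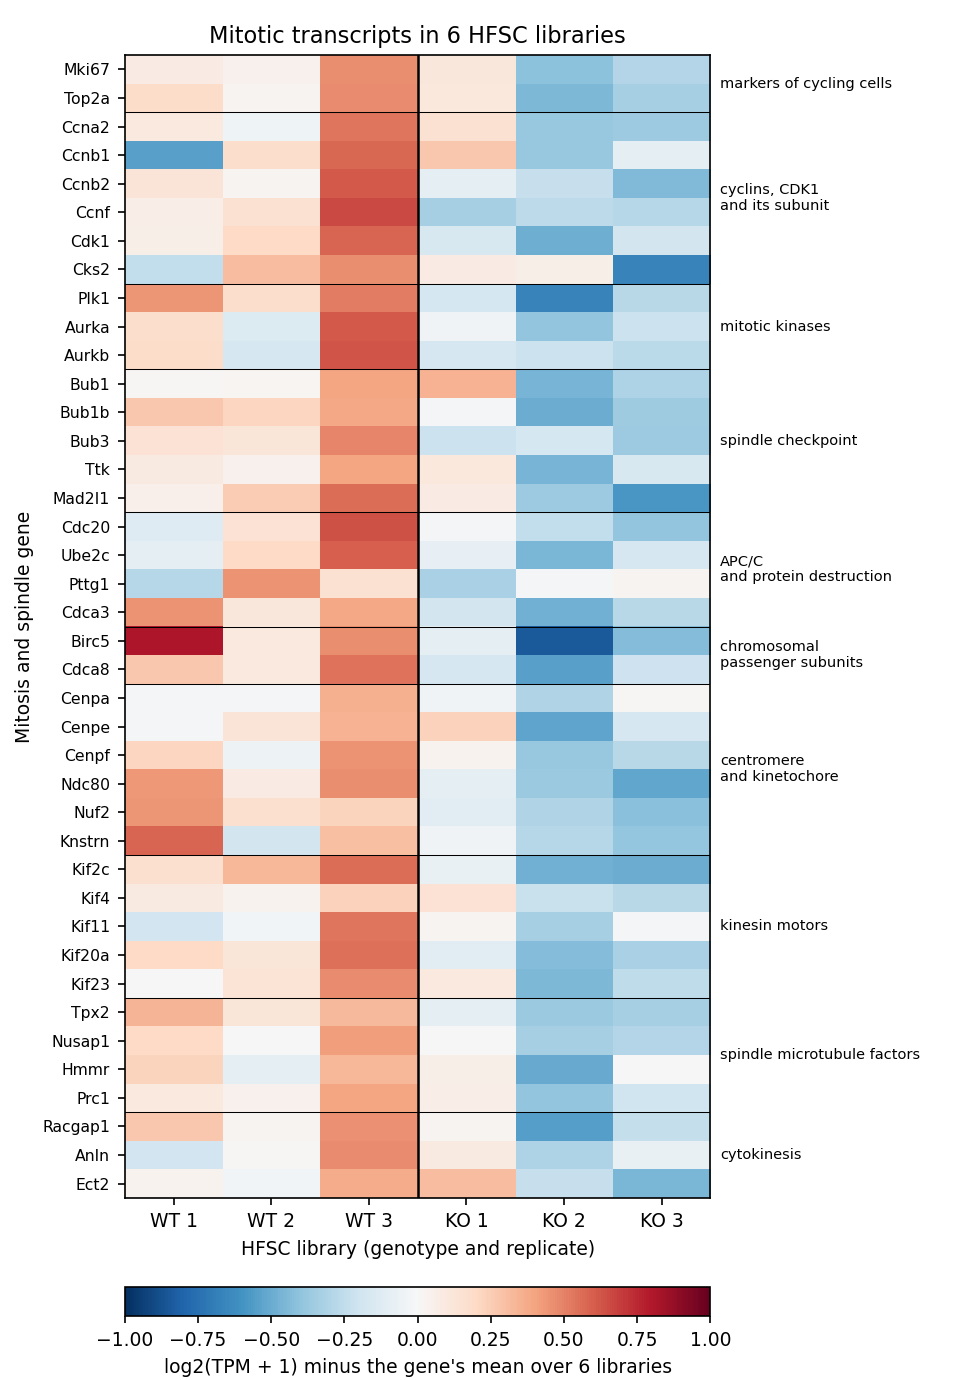
Level of each of the 40 genes (rows, grouped by role) in the 6 HFSC libraries (columns), as log2(TPM + 1) minus the gene's mean over the 6 libraries, with red above and blue below that mean. The column of GR WT replicate 3 is red in nearly all rows, those of GR KO replicates 2 and 3 are mostly blue, and GR KO replicate 1 is near the mean in many rows.

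Among the markers of cycling cells, both were lower at an unadjusted p under 0.05, and neither separated the groups. Mki67 encodes Ki-67, a protein of the surface of mitotic chromosomes that is widely used to count cycling cells. Mki67 (NM_001081117, mm10 chr7:135689788-135716379, minus strand) stood at 117, 114 and 152 TPM in GR WT replicates 1 to 3 and at 119, 82.6 and 89.8 TPM in GR KO replicates 1 to 3. KO replicate 1 was thus level with the lower 2 WT libraries, and the other KO libraries lay below all WT libraries. The fold change was -0.40 on the log2 scale (SE 0.17, limma adjusted p = 0.291), and an exact two-sided permutation test over the 20 assignments of libraries gave p = 0.3, where 0.1 is the smallest possible. Top2a, the topoisomerase that untangles sister chromatids, was at 166, 148 and 202 TPM in GR WT and 157, 106.5 and 115 TPM in GR KO. KO replicate 1 again lay between the WT libraries (log2 fold change -0.45, SE 0.17, limma adjusted p = 0.246).

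Of the 6 genes for cyclins, CDK1 and its subunit, Cdk1, Ccnf and Ccnb2 separated the groups and were the 3 with an unadjusted p under 0.05. Cdk1, the kinase that drives entry into mitosis (NM_007659, mm10 chr10:69336635-69352912, minus strand), was at 50.4, 55.5 and 72.9 TPM in GR WT and at 43.1, 34.1 and 42.3 TPM in GR KO. Its highest KO library lay below its lowest WT library, and the KO mean was 66.8% of the WT mean (log2 fold change -0.56, SE 0.16, limma adjusted p = 0.154). Ccnf, cyclin F, a subunit of a ubiquitin ligase, was at 18.7, 19.96 and 28.7 TPM in GR WT and at 13.96, 14.7 and 14.4 TPM in GR KO (log2 fold change -0.59, SE 0.18, adjusted p = 0.169). The KO libraries of Ccnf were close to each other, and WT replicate 3 stood above the other two. Ccnb2, a B-type cyclin partner of CDK1 with the CCAAT boxes shown above, was at 66.7, 62.3 and 93.6 TPM in GR WT and at 57.1, 51.8 and 44.6 TPM in GR KO (log2 fold change -0.51, SE 0.17, adjusted p = 0.1997).

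Ccnb1, the main mitotic cyclin, did not follow the other genes closely. It stood at 24.7, 41.4 and 54.9 TPM in GR WT and at 44.2, 27.9 and 34.1 TPM in GR KO (NM_172301, mm10 chr13:100778739-100786486, minus strand). WT replicate 1 was the lowest of all 6 libraries and KO replicate 1 the second highest, so the groups overlapped widely. Its fold change was -0.14 on the log2 scale (SE 0.28, limma adjusted p = 0.842; exact two-sided permutation p = 0.8), and it was 0.11 without WT replicate 3 and 0.01 without KO replicate 2. The other genes of the class, Ccna2 (-0.40) and the CDK1 subunit gene Cks2 (-0.35), also overlapped on the same scale.

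**Figure D3:**
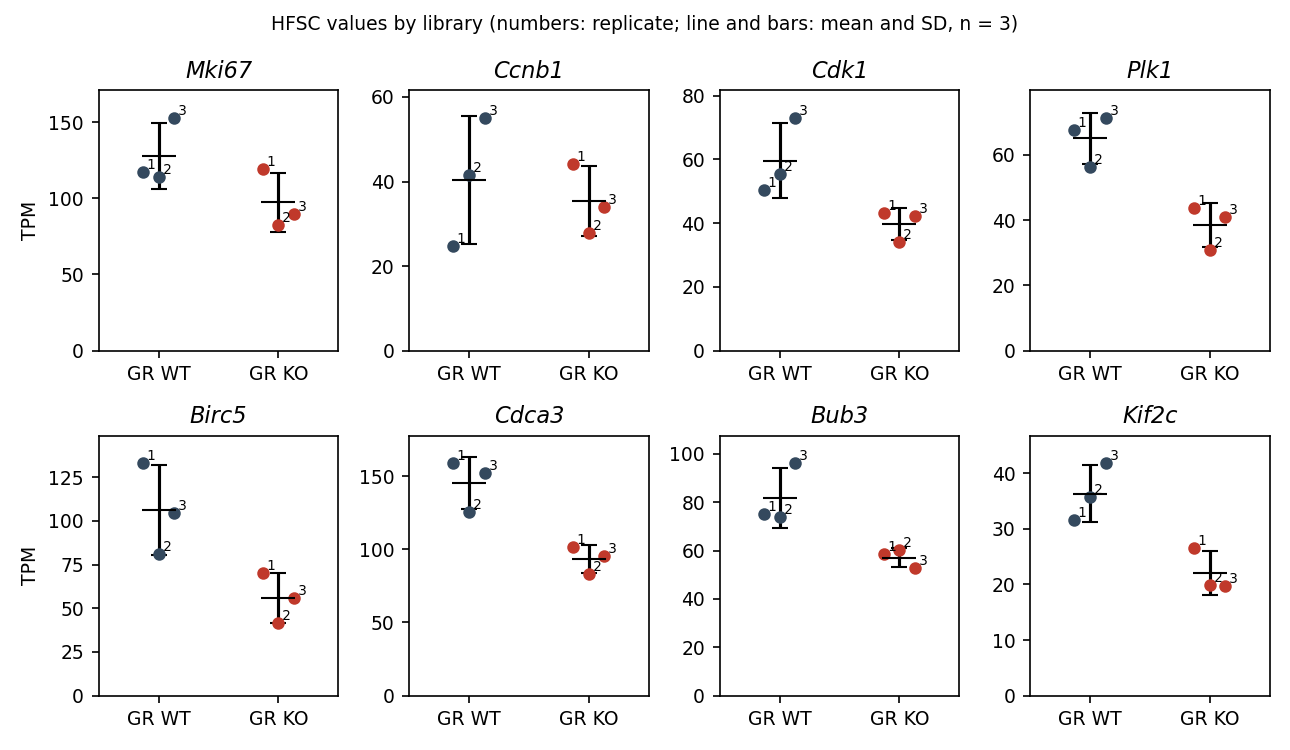
TPM of 8 of the genes in each HFSC library (points numbered by replicate, GR WT dark, GR KO red), with the mean (line) and SD (bars, n = 3), on axes that start at 0. The groups overlap for Mki67 and Ccnb1 and do not overlap for Cdk1, Plk1, Birc5, Cdca3, Bub3 and Kif2c.

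Plk1 had the lowest fold change of the mitotic kinases and of the 40 genes after Birc5. It encodes Polo-like kinase 1, which acts in centrosome maturation, spindle assembly and cytokinesis (NM_011121, mm10 chr7:122159435-122169884, plus strand). Plk1 was at 67.7, 56.2 and 71.2 TPM in GR WT and at 43.9, 31.0 and 40.8 TPM in GR KO, with means of 65.0 ± 7.84 and 38.5 ± 6.75 TPM (SD, n = 3 each). The groups were well apart (KO mean 59.3% of WT, log2 fold change -0.75, SE 0.16, limma adjusted p = 0.0871). Aurkb, the Aurora kinase of the chromosomal passenger complex, was at 53.2, 41.3 and 72.9 TPM in GR WT and at 41.5, 40.1 and 38.6 TPM in GR KO. WT replicate 2 lay within the KO libraries, so the groups touched (log2 fold change -0.43, SE 0.19, adjusted p = 0.306). Aurka, the spindle pole Aurora kinase, had a similar fold change of -0.44 and also overlapped.

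The chromosomal passenger subunits showed the lowest median of the 10 role classes, -0.76 over 2 genes, both with separate groups. These proteins carry Aurora B to centromeres and later to the spindle midzone. Birc5, which encodes survivin (NM_009689, mm10 chr11:117849237-117855743, plus strand), was at 133, 81.0 and 105 TPM in GR WT and at 70.5, 41.9 and 55.6 TPM in GR KO. The KO mean was 52.7% of the WT mean, the lowest share of the 40 genes, yet both groups were spread widely (log2 fold change -0.91, SE 0.22, limma adjusted p = 0.117). Cdca8, which encodes borealin, was at 78.7, 69.4 and 95.3 TPM in GR WT and at 57.7, 44.4 and 56.2 TPM in GR KO. Its groups did not overlap (log2 fold change -0.61, SE 0.15, adjusted p = 0.123).

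In the spindle checkpoint class, 3 of 5 genes had an unadjusted p under 0.05 and 2 of them separated the groups. Bub1b, which encodes the checkpoint protein BubR1, was at 55.04, 53.1 and 59.8 TPM in GR WT and at 45.01, 32.1 and 35.4 TPM in GR KO. WT libraries were tight and all above the KO libraries (log2 fold change -0.58, SE 0.14, limma adjusted p = 0.119). Bub3, a partner of BUB1 and BubR1 at kinetochores, was at 75.4, 74 and 96.1 TPM in GR WT and at 58.5, 60.2 and 52.7 TPM in GR KO (log2 fold change -0.50, SE 0.13, adjusted p = 0.127). The third, Mad2l1, whose product inhibits the APC/C, had a fold change of -0.58 with overlapping groups. Bub1 (-0.28) and the kinase gene Ttk (-0.35) overlapped as well.

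Among genes of the APC/C and its destruction targets, Cdca3 had the smallest p of the 40. Its product helps to trigger mitotic entry (NM_013538, mm10 chr6:124830176-124833701, plus strand). Cdca3 was at 159, 125 and 152 TPM in GR WT and at 102, 82.8 and 95.5 TPM in GR KO, with means of 145 ± 17.7 and 93.4 ± 9.67 TPM (SD, n = 3 each). The groups were clearly apart (KO mean 64.3% of WT, log2 fold change -0.63, SE 0.13, limma adjusted p = 0.0782). Ube2c, the ubiquitin-conjugating enzyme of the APC/C, was at 91.5, 112 and 148 TPM in GR WT and at 92.4, 70.7 and 87.0 TPM in GR KO. KO replicate 1 was just above WT replicate 1 (log2 fold change -0.47, SE 0.18, adjusted p = 0.258). Cdc20, an APC/C activator, had a fold change of -0.44, and Pttg1, which encodes securin, of -0.21, both with overlapping groups.

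Of 6 centromere and kinetochore genes, Ndc80 and Nuf2 separated the groups. Their products pair within the NDC80 complex, which binds microtubules at the outer kinetochore. Ndc80 was at 20.8, 16.1 and 21.2 TPM in GR WT and at 14.1, 11.5 and 10.2 TPM in GR KO (log2 fold change -0.65, SE 0.18, limma adjusted p = 0.142). Nuf2 was at 36.5, 29.9 and 31.2 TPM in GR WT and at 24.7, 21.4 and 19.7 TPM in GR KO (log2 fold change -0.55, SE 0.14, adjusted p = 0.126). In both genes all KO libraries lay below all WT libraries. The other 4 overlapped, with fold changes of -0.47 for Knstrn, -0.41 for Cenpf, -0.31 for the motor gene Cenpe and -0.22 for Cenpa, the histone H3 variant that marks centromeres.

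Kinesins divided in the same way, with Kif2c and Kif20a apart and Kif4, Kif11 and Kif23 overlapping. Kif2c encodes MCAK, a kinesin that depolymerises microtubules at centromeres. Kif2c was at 31.6, 35.7 and 41.8 TPM in GR WT and at 26.6, 19.9 and 19.7 TPM in GR KO (KO mean 60.7% of WT, log2 fold change -0.70, SE 0.17, limma adjusted p = 0.114). Kif20a, a kinesin of the central spindle, was at 52.3, 49.3 and 66.7 TPM in GR WT and at 42.1, 33.3 and 35.9 TPM in GR KO (log2 fold change -0.58, SE 0.15, adjusted p = 0.127). For both, KO replicate 1 was the highest of its group and still under every WT library. Kif23, the motor of the centralspindlin complex, had a fold change of -0.41, Kif4 of -0.24 and Kif11, which pushes spindle poles apart, of -0.21.

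Among spindle microtubule factors, Tpx2 separated the groups and Nusap1, Prc1 and Hmmr did not. Tpx2, an activator of Aurora A and nucleator of spindle microtubules, was at 53.9, 46.1 and 53.4 TPM in GR WT and at 39.7, 32.6 and 33.5 TPM in GR KO. Both groups were tight and clear of each other (log2 fold change -0.52, SE 0.13, limma adjusted p = 0.117). Nusap1, a spindle microtubule bundler, was at 48.2, 41.9 and 56.5 TPM in GR WT and at 42.0, 33.1 and 34.1 TPM in GR KO, so that KO replicate 1 was level with WT replicate 2 (log2 fold change -0.41, SE 0.15, adjusted p = 0.233). The fold change was -0.35 for Prc1, which crosslinks midzone microtubules, and -0.30 for Hmmr.

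Cytokinesis genes had the median nearest to 0 of the role classes, -0.25 over 3 genes. Racgap1, part of centralspindlin, was at 77.0, 65.1 and 88.1 TPM in GR WT and at 65.0, 43.2 and 53.8 TPM in GR KO. The groups did not overlap, but WT replicate 2 and KO replicate 1 were nearly level (log2 fold change -0.51, SE 0.17, limma adjusted p = 0.203). Ect2, the exchange factor that activates RhoA at the cleavage furrow, was at 26.5, 25.3 and 33.6 TPM in GR WT and at 32.2, 21.8 and 18.5 TPM in GR KO. KO replicate 1 exceeded 2 of the WT libraries (log2 fold change -0.25, SE 0.21, adjusted p = 0.593). Anln, which encodes anillin of the contractile ring, had a fold change of -0.20.

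The promoter motifs were present both in genes whose HFSC groups separated and in genes whose groups overlapped. Of the 15 genes with separate HFSC groups, 13 had a window, and 11 of these held TTTGAA and 9 CCAAT. The 11 include Kif2c, whose window lies 3852 bases from the start of the measured transcript. Of the 25 genes with overlapping groups, 23 had a window, and 15 of these held TTTGAA and 18 CCAAT. Birc5 and Nuf2, which hold neither, were among the genes with separate groups, and Mki67, Top2a, Cdc20 and Hmmr, which hold both, were among those that overlapped.

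Other cell cycle genes in HFSC were read from 8 further lists, whose counts at an unadjusted p under 0.05 stand against the 8.8% lower and 7.8% higher of all genes. The lists were not tested against each other. Of 34 other kinetochore and centromere genes tested, 13 were lower at an unadjusted p under 0.05 and 0 higher (median log2 fold change -0.38), with 0 past the adjusted threshold. Cenpm, of the inner kinetochore, was at 33.3 ± 3.76 TPM in GR WT and 17.0 ± 3.06 TPM in GR KO (SD, n = 3 each; log2 fold change -0.95, limma adjusted p = 0.0689). Of 25 other motors and spindle genes, 9 were lower and 0 higher (median -0.41), led by the minus-end kinesin gene Kifc1 (-0.78, limma adjusted p = 0.0689). Condensin and cohesin genes (3 of 17 lower), APC/C core and inhibitor genes (6 of 17, among them Ube2s at -0.68), cell cycle transcription factors (5 of 23, among them E2f8 at -0.62) and regulators of mitotic entry and exit (3 of 16, among them Pkmyt1 at -0.47) had medians of -0.22, -0.21, -0.22 and -0.14, and none was higher at that p.

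Lower values were not particular to the 40 mitotic genes, of which 21 were lower at an unadjusted p under 0.05 (median -0.44). The S phase list was not tested against the 40. Of 22 S phase genes, 18 were lower at that p and 2 passed the adjusted threshold (median -0.52), which 0 of the 40 did. These 2 were Ung, the uracil glycosylase, which fell from 39.1 ± 3.59 to 18.2 ± 1.95 TPM (SD, n = 3 each; limma adjusted p = 0.0413), and Gins2 of the replicative helicase, which fell from 60.6 ± 8.35 to 30.5 ± 2.47 TPM (limma adjusted p = 0.0494). Among 12 tested G1 cyclins and CDK inhibitors, 5 were lower and 1 was higher. The higher one was Cdkn1a, which encodes the CDK inhibitor p21 and rose from 89.0 ± 6.04 to 152.9 ± 10.4 TPM (log2 fold change 0.77, limma adjusted p = 0.0459). Over all genes, the 22 adjusted calls in HFSC became 0 to 5 when any 1 library was left out, and none of these 3 then passed (limma adjusted p from 0.0594 to 0.206). Cdkn3, a phosphatase gene of the late cell cycle, was at -1.36 (limma adjusted p = 0.0689).

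Some cell type markers moved with the same comparison. Others overlapped: suprabasal keratinocyte markers summed to 39.5 to 121.8 TPM in GR WT and 33.3 to 102.5 TPM in GR KO. Fibroblast markers summed to 4.16 to 15.4 and 5.41 to 12.0 TPM. All 8 sebocyte markers were higher in GR KO HFSC at an unadjusted p under 0.05, 2 of them past the adjusted threshold, and their summed level was 3360 to 4948 TPM in GR WT and 7311 to 8893 TPM in GR KO. The 10 HFSC markers summed to 18370 to 23353 TPM in GR WT and 14074 to 17207 TPM in GR KO. Most of this sum came from the keratin genes Krt5, Krt15 and Krt14. Of the 10, 3 were lower and 0 higher at an unadjusted p under 0.05. Cd34, used for the sort, was at 108.8 to 148.7 TPM in GR WT and 130.2 to 224.8 TPM in GR KO. The part of these shifts in the lower mitotic transcripts was not tested. Immune marker sums were low. Macrophage markers summed to 1.09 to 15.4 TPM in GR WT and 0.273 to 4.47 TPM in GR KO. Neutrophil markers summed to 3.22 to 14.7 and 0 to 11.4 TPM, with Retnlg at 0 throughout. Treg markers summed to 17 to 29.2 TPM in GR WT and 22.1 to 25.1 TPM in GR KO. Melanocyte markers did not overlap, with sums of 6.55 to 15.5 TPM in GR WT and 3.26 to 3.76 TPM in GR KO. Hair matrix and shaft markers summed to 14.5 to 27.8 TPM in GR WT and 12.7 to 18.6 TPM in GR KO, with Krt31 at 0 in every library.

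In Treg cells, at which the deletion is aimed, the fitted changes of the same genes were mostly above 0 and small against their errors. Levels were low for most of the genes, and Ttk, Kif2c, Cenpe, Cenpf and Anln, with a mean under 1 TPM, were not tested. Of the 35 tested, 27 had a fold change above 0, against 44.2% of all 11579 genes, with a median of 0.26 and a range from -0.50 to 1.06 against a median of -0.04 over all genes. None passed the adjusted threshold in limma, which 1.51% of all genes did, or with voom, and the smallest limma adjusted p was 0.134. At an unadjusted p under 0.05, 2 of the 35 (5.71%) were higher and 1 (2.86%) was lower, shares near or below the 5.15% and 8.93% of all genes. The median was 0.10 without WT replicate 2, and 6 genes were higher without WT replicate 3 and 4 without WT replicate 1. Quantile scaling gave 8 higher, with 8.45% of all genes higher and 7.12% lower. Every KO library lay below every WT library for 3 genes (8.57%, against 5.1% of all genes) and above for 1 (2.86%, against 3.42%). The sum over all 40 genes was 421 to 476 TPM in GR WT and 447 to 494 TPM in GR KO libraries. Pttg1 gave the largest part of it, with means of 141 TPM in GR WT and 133.9 TPM in GR KO.

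Cenpa had the smallest p in Treg cells. It was at 47.1, 62.0 and 49.3 TPM in GR WT replicates 1 to 3 and at 66.8 to 73.6 TPM in GR KO, with a KO median of 68.7 TPM. All 5 KO libraries were above all WT libraries (log2 fold change 0.40, SE 0.11, limma adjusted p = 0.134), and the adjusted p was 0.0480 without WT replicate 2. Hmmr was at 0.495, 0.458 and 1.58 TPM in GR WT and at 1.1 to 2.75 TPM in GR KO (median 2.34 TPM; log2 fold change 0.72, SE 0.32, limma adjusted p = 0.342). Ube2c was at 1.94, 0.552 and 8.75 TPM in GR WT and at 4.83 to 11.6 TPM in GR KO (median 5.88 TPM), so that 1 WT library exceeded most KO libraries (log2 fold change 1.06, SE 0.49, adjusted p = 0.367). The spread within the WT group was thus as large as the difference between groups for Ube2c.

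The genes with lower Treg values in GR KO were few and included Mki67. Prc1 was at 16.4, 12.9 and 16.5 TPM in GR WT and at 9.62 to 12.6 TPM in GR KO (median 10.6 TPM; log2 fold change -0.45, SE 0.15, limma adjusted p = 0.208). Bub1b was at 2.95, 2.73 and 3.35 TPM in GR WT and at 1.44 to 2.43 TPM in GR KO (median 1.72 TPM; log2 fold change -0.50, SE 0.23, adjusted p = 0.361). Mki67 was at 13.3, 12.97 and 17.2 TPM in GR WT and at 10.04 to 12.4 TPM in GR KO (median 11.6 TPM). The KO libraries of these 3 genes lay below all WT libraries, narrowly so for Prc1. For Mki67 the change was -0.33 on the log2 scale (SE 0.15, limma adjusted p = 0.370; exact two-sided permutation p = 0.0357 over 56 assignments, where 0.0179 is the smallest possible). Ccnb1 was at 0.956, 0.332 and 1.84 TPM in GR WT and at 0.642 to 2.79 TPM in GR KO, with wide overlap (log2 fold change 0.37, limma adjusted p = 0.686; exact two-sided permutation p = 0.357).

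The other cell cycle lists showed no adjusted call in Treg cells, and their median log2 fold changes lay between -0.17 for condensin and cohesin genes and 0.13 for other motors and spindle genes. Markers of several other cells were lower in the GR KO Treg libraries, while those of CD8 and conventional T cells were not. The HFSC markers summed to 322 to 555 TPM in GR WT and 43.3 to 106.7 TPM in GR KO, macrophage markers to 192 to 333 and 54.9 to 156.6 TPM, and neutrophil markers to 75.7 to 325 and 0 to 20.8 TPM. CD8 and conventional T markers summed to 91.8 to 124.5 TPM in GR WT and 104.6 to 192.6 TPM in GR KO (median log2 fold change 0.45). The part of all these cells in the Treg values of the mitotic genes was not tested.

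**Figure D4:**
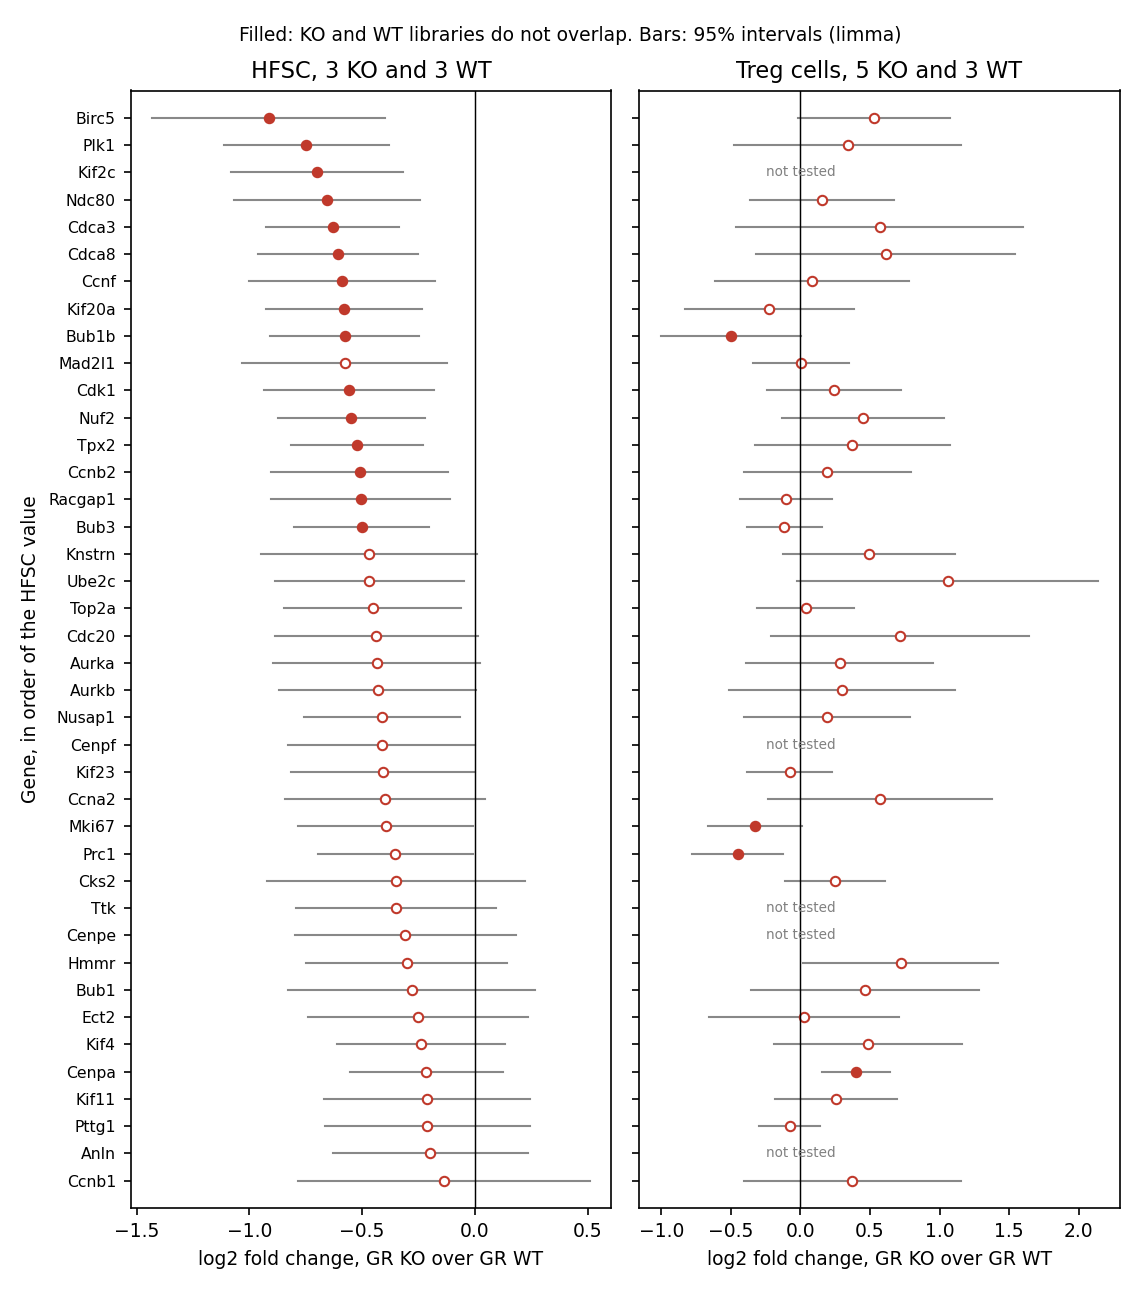
Log2 fold change of each gene, GR KO over GR WT, in HFSC (left) and Treg cells (right), with 95% intervals from limma and genes in order of the HFSC value. Filled points mark genes whose KO and WT libraries do not overlap: 15 in HFSC, all below 0, and 4 in Treg cells, of which Cenpa is above 0.

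The difference between the HFSC and the Treg effect was tested in a single fit of all 14 libraries. That fit assumes the same spread of a gene in both cell types, though most of these genes were far lower in Treg cells. Of the 35 genes tested, 34 had a difference below 0, meaning a lower KO to WT ratio in HFSC than in Treg cells, with a median of -0.70 against 0.04 over 10362 genes. At an unadjusted p under 0.05, 15 (42.9%) were below 0 and 0 above, against 7.28% and 8.92% of all genes. That count of 15 was 8 without HFSC WT replicate 3, 7 without HFSC KO replicate 2, 9 without HFSC KO replicate 3 and 6 without Treg WT replicate 2. None passed the adjusted threshold in limma, against 1.86% of all genes. Birc5 came nearest, with a fold change of -0.91 in HFSC and 0.53 in Treg cells (difference -1.44, SE 0.35, limma adjusted p = 0.0502, from 0.0146 to 0.144 for the smallest of the 35 when a library was left out). In Treg cells Birc5 was at 6.56, 5.01 and 3.19 TPM in GR WT and at 5.43 to 9.81 TPM in GR KO. Nuf2 followed, at 1.15, 1.17 and 2.90 TPM in GR WT and 2.44 to 2.95 TPM in GR KO Treg cells (difference -0.998, SE 0.29, limma adjusted p = 0.102). For Cenpa the difference was -0.61 (SE 0.18, adjusted p = 0.104), with the caution that Cenpa and Ect2 are the 2 genes whose listed transcript differs between the tables. The cell types were taken at different times after depilation, so cell type and time cannot be told apart in this difference.

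**Figure D5:**
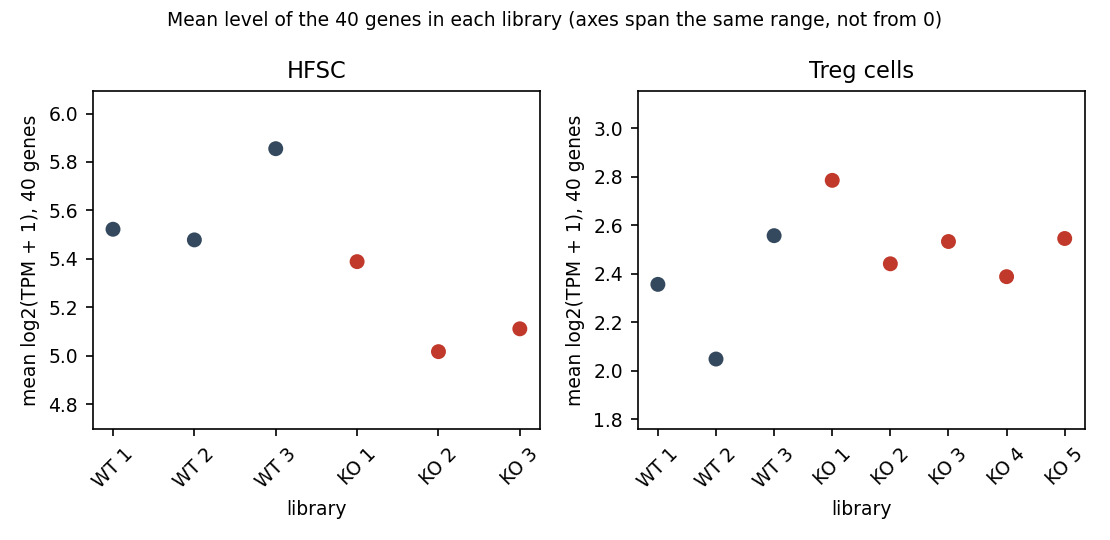
Mean log2(TPM + 1) over the 40 genes in each library, HFSC (left) and Treg cells (right), GR WT dark and GR KO red. The 3 HFSC KO libraries lie at 5.02 to 5.39, below the WT libraries at 5.48 to 5.85, while Treg KO libraries at 2.39 to 2.79 overlap WT libraries at 2.05 to 2.56.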

How the data were processed

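RNA from sorted cells was made into stranded mRNA libraries, per the labels' protocols. FastQC, Trim Galore, STAR, HOMER and the build mm10 are named in the submitters' processing notes. Their versions, settings and use of strand were not given in the sources used here. Reads of genes that overlap on the other strand, or of near-identical copies, can therefore not be told apart. The authors deposited TPM in 1 table per cell type, with 1 RefSeq transcript and its length per symbol, per the file headers. A prefix on the HFSC columns has no explanation in the labels, and these columns were matched on table, genotype and replicate number. Sample titles gave the groups.

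Genes averaging at least 1 TPM in a table were tested there with limma 3.58.1 (R 4.3.3). It was run on log2(TPM + 1) with a prior that follows the mean level, two-sided, with Benjamini-Hochberg adjustment over all genes tested at 0.05. Fold changes on this scale are smaller than the true ones for genes near 1 TPM. The difference between cell types was a contrast over all 14 libraries. The fit was tested on simulated data. TPM times length gave whole tags (within 0.1 tag for 100% of low values), the source of the depths given. Between 75.9% and 84.0% of tag counts up to 100 were even, as would follow from counting each mate of a read pair, and tags are not independent molecules.

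The genes and lists were chosen with earlier results of these data known. Of 274 list entries, 273 had a row. Values per library are given for Mki67 and Ccnb1, for the 2 genes of each role class with the smallest HFSC p, for HFSC genes with separate groups, and for the 5 genes with the smallest p in Treg cells and the 3 with the smallest p in the difference between cell types. Up to 3 genes of each other list could be named. Alternatives covered the pseudocount, the filter, scaling, voom on recovered tags, a replicate block, leaving out each library and a shorter promoter window.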

Additional observations from a re-analysis of the deposited data

Results flagged for a closer look

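In the GR KO Treg group of 5 libraries, a Dixon test at 95% was run on all 40 genes, and 3 had a library set apart; chance alone gives about 1 in 20. Cdk1 was at 6.353 TPM in KO replicate 1 and at 4.23 to 4.59 TPM in the others. Ube2c was at 11.585 TPM in KO replicate 1 and at 4.83 to 6.04 TPM in the others. Nuf2 was at 2.954 TPM in KO replicate 3 and at 2.44 to 2.58 TPM in the others. Groups of 3 libraries were not tested in this way.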

How the results depend on the processing

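The HFSC median lay between -0.55 and -0.29 when each library was left out, with 13 to 30 of the 40 genes lower at an unadjusted p under 0.05 (13 without WT replicate 3) and 0 past the adjusted threshold each time. With voom on recovered tags, 12 genes passed that threshold (Ccnf, Cdk1, Plk1, Bub1b, Bub3, Cdca3, Birc5, Cdca8, Nuf2, Kif2c, Kif20a and Tpx2), as did 483 of all 12493 genes, and the cause was not tested. With a replicate block in HFSC, 1 gene passed (Birc5, limma adjusted p = 0.0466) and 23 were lower at an unadjusted p under 0.05. Same-numbered libraries did not deviate together (r = 0.0156, 0.0619 and -0.0420 in HFSC, and 0.170, 0.0873 and -0.117 in Treg cells), so the numbers are not treated as pairs. With the replicate block on Treg replicates 1 to 3, 3 genes were higher, the median was 0.38, Ccnf turned to -0.0312 and Mad2l1 to -0.0915. The same replicates with no block, an alternative chosen after seeing the data, gave these same 2 values. Leaving out each library in turn gave HFSC ranges that cross 0 for Ccnb1 (-0.45 to 0.11) and Kif11 (-0.36 to 0.0024). In Treg cells such ranges were found for Top2a (-0.14 to 0.195), Ccnf (-0.15 to 0.35), Mad2l1 (-0.080 to 0.148), Cdca3 (-0.10 to 0.96) and Ect2 (-0.12 to 0.21), and quantile scaling turned Kif20a to 0.0170. Treg genes higher at an unadjusted p under 0.05 numbered 1 to 6 with a library left out, 1 with a pseudocount of 5, 1 with a mean of at least 5 TPM and 8 with quantile scaling. In Treg cells 0 to 1 passed the adjusted threshold with a library left out (Cenpa, at 0.52, without WT replicate 2), and a mean of at least 5 TPM left 15 genes with a median of 0.0369. For the difference between cell types, 1 gene passed the adjusted threshold with a pseudocount of 5, 1 with a mean of at least 5 TPM and 0 to 2 when a library was left out. In the 250 bases before the start alone, TTTGAA was in 30.6% of the 36 windows (16% of all windows) and both motifs in 27.8% (5.55% of all windows). On a transcript of 2000 bases, 3 tags are worth 0.308 to 0.515 TPM in HFSC and 0.138 to 0.207 TPM in Treg libraries, which covers counting error only.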
